A study of Mus musculus with 24 samples.

Results

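Subset 1 was compared with subset 2 of the mononuclear phagocytes sorted from tibialis anterior muscle on day 4 after an injection of notexin, a phospholipase from snake venom that kills muscle fibres. The comparison took 8 of the 24 arrays of the series, chosen by their labels, with 4 arrays of each subset. Both subsets were sorted as CD11b+ cells that carried the lectin Mgl1 and lacked the neutrophil antigen Ly6G and the natural killer antigen NK1.1. They were low for the macrophage antigen F4/80 and were parted by Ly6C, high in subset 1 and low in subset 2. Cells without Mgl1 that looked like eosinophils were left out by the gate. Each subset was represented once in WT (C57Bl/6), Cx3cr1-/-, Ccl2-/- and Cx3cr1-/- Ccl2-/- mice, all injected with notexin, so that the 4 strains served as the replicates (n = 4). Values of single arrays are given below in that order of strains. The other 16 arrays held subsets 3 and 4, F4/80 high cells parted by Mgl1, on day 4 and in untreated muscle. The mice were adult, of both sexes and on a C57Bl/6J background, and the deletions of Cx3cr1 and Ccl2 were constitutive. Each array was made from RNA of a pool of 3 mice of 1 strain in a single sorting experiment, and subsets 1 and 2 of a strain came from the same pool. The p-values therefore measure the spread between 4 pools that also differed in genotype, and not the spread between mice of 1 strain.

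Ly6C high monocytes leave the blood for injured muscle, where they clear debris and turn into macrophages. Dendritic cells take up antigen, present it to T cells on MHC class II molecules and, on maturation, gain the chemokine receptor CCR7, which leads them through lymph vessels to lymph nodes. Dendritic cells of the type 2 lineage depend on the transcription factor IRF4, and monocytes in inflamed tissue can gain some of the same genes.

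The number of probes detected (detection p under 0.05, of 45281 on the array) was 14135 to 16445 in subset 1. Subset 2 had 15794 in WT and 15779 in Ccl2-/-, but 7054 in the array labelled Cx3cr1-/- and 10072 in the array labelled Cx3cr1-/- Ccl2-/-. Arrays of subset 1 correlated with each other at 0.92 to 0.98 over the 14956 probes tested below, and the WT and Ccl2-/- arrays of subset 2 at 0.928, while the 2 low-detection arrays correlated with each other at 0.764 and with the other arrays of subset 2 at 0.528 to 0.743. Both low-detection arrays carry the label of a Cx3cr1-deficient strain, so low detection and that label cannot be told apart in subset 2, and counts of calls are given with and without them. The log2 intensity of Cx3cr1 itself was 7.56, 4.91, 6.41 and 5.02 in subset 1, lower in both arrays labelled as lacking the gene, and 6.21, 7.21, 6.65 and 6.46 in subset 2, where it was not. The subset 2 arrays labelled Cx3cr1-/- and Cx3cr1-/- Ccl2-/- thus went against their labels by this probe, whose place relative to the deletion is unknown here. The faintest signal detected on these 2 arrays was 6.76 and 6.04, against 5.25 on the WT and Ccl2-/- arrays of subset 2. Their Cx3cr1 values therefore lay near background, and no label can be judged by them. All levels are log2 intensities after background correction, which widens differences between dim probes, and after a quantile step over the 24 arrays, which gives them 1 distribution. In bulk RNA of a sorted gate, fewer cells of a type and less RNA per cell cannot be told apart.

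Of 14956 probes tested, 210 differed at an adjusted p under 0.05 (limma), 129 of them higher in subset 1 and 81 higher in subset 2. Taken as genes, each by its probe of highest mean intensity, 73 of 8037 were called higher in subset 1 (0.908%) and 59 higher in subset 2 (0.734%). In each of the 132 called genes the difference had 1 sign in all 4 strains and the subsets did not overlap. Over all 8037 tested genes, the subsets did not overlap in 876 with subset 1 above and in 444 with subset 2 above. Calls with 4 arrays a side tend to be parted in this way, so this is no added support. Of the called genes, 21 higher in subset 1 had no subset 2 array above background, and 15 higher in subset 2 no subset 1 array. These entered the test through the arrays of the higher subset alone. With the pool as a block, which follows the pairing of the 2 subsets within a strain, 72 probes were called, 33 and 39 in the 2 directions, all of them among the 210. Without the 2 low-detection arrays 680 probes were called, with 202 genes higher in each direction (2.51% each), and 208 of the 210 probes remained. The median difference of all tested genes, subset 1 minus subset 2, was 0.27 on the log2 scale and 0.02 without those arrays. Scaling each array to a common median in place of the quantile step gave 104 probes higher in subset 1 and 29 higher in subset 2, or 78.2% in the first direction against 61.4%, with a median over all tested genes of 0.66.

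**Figure D1:**
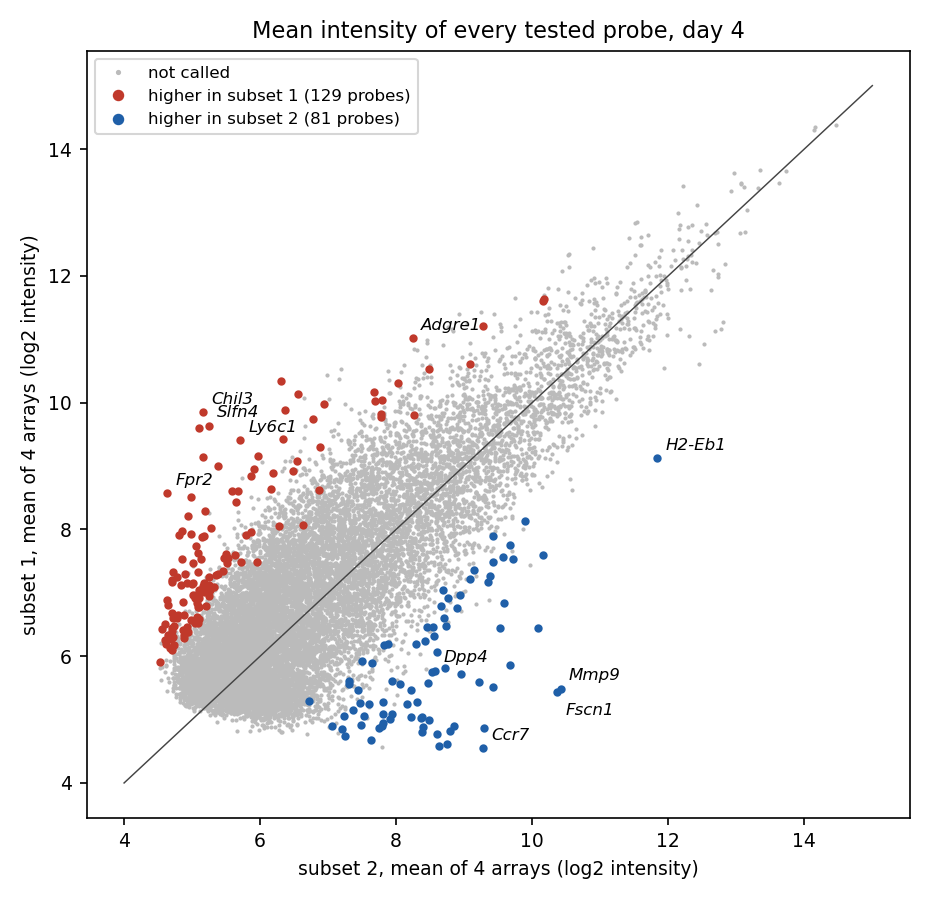
Mean log2 intensity of every tested probe in subset 2 (x axis) and subset 1 (y axis), each point the mean of 4 arrays of day 4, with the line of equal values. The 129 probes called higher in subset 1 lie above the line and the 81 called higher in subset 2 below it, with Fscn1, Mmp9 and Ccr7 among the points farthest from it.

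Of 4 marker genes chosen with earlier results of these data known, Ly6c1 and Slfn4 were called higher in subset 1, and Fscn1 and Dpp4 higher in subset 2. Ly6c1, a gene of the Ly6C antigen of the gate, had a log2 intensity of 9.52, 9.45, 9.16 and 9.50 in subset 1 and 6.15, 5.01, 5.65 and 6.00 in subset 2. Its arrays did not overlap, 2 of those of subset 2 were above background, and the log2 difference of 3.71 ± 0.32 (SE; adjusted p = 0.000969) checks the sort and is no independent finding. Ly6c2, the other gene of that antigen, was not analysed here, and a probe for Ly6c1 may read both near-identical copies. Slfn4, a Schlafen family gene of myeloid cells, was 8.79, 8.86, 10.69 and 10.19 in subset 1 and 4.78, 4.71, 6.66 and 4.83 in subset 2. It was higher by 4.39 ± 0.58 (adjusted p = 0.00614), with the Ccl2-/- array highest in both subsets and 1 array of subset 2 above background. Fscn1, which encodes the actin-bundling protein fascin of mature dendritic cells, was 4.64, 5.97, 5.48 and 5.66 in subset 1 and 8.89, 11.63, 10.26 and 10.69 in subset 2. The log2 difference was −4.93 ± 0.55 (adjusted p = 0.00316), and 3 arrays of subset 1 were above background. Dpp4, which encodes the peptidase CD26 found on conventional dendritic cells and T cells, was 5.33, 6.91, 5.70 and 5.16 in subset 1 and 7.82, 9.49, 8.41 and 8.55 in subset 2. The array labelled Cx3cr1-/- had the highest Dpp4 value in each subset, 3 arrays of subset 1 were above background, and the difference was −2.80 ± 0.48 (adjusted p = 0.0219).

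The other antigens of the gates gave less separation. Adgre1, the gene of F4/80, for which both subsets were sorted low, was 11.16, 11.35, 10.58 and 11.00 in subset 1 and 9.60, 7.39, 8.72 and 7.26 in subset 2. It was 6.85-fold higher in subset 1 (adjusted p = 0.0324), and the 2 low-detection arrays were the lowest, so that the log2 difference was 2.78 with them and 1.86 without. The call was lost with the pool as a block (adjusted p = 0.0737), and 2 other probes of Adgre1 did not pass. Itgam, the gene of CD11b, differed by −1.0 ± 0.64 (adjusted p = 0.344), and by 0.24 without the low-detection arrays. Clec10a, the gene of Mgl1, differed by −0.15 ± 0.56 (adjusted p = 0.872). Clec10a was called higher in subset 2 without the low-detection arrays (−1.24, adjusted p = 0.0145), while its sign turned under median scaling of all 8 arrays. Ccr2, the CCL2 receptor of monocytes, was 8.03 ± 0.13 (SD, n = 4) in subset 1 and 6.03 ± 1.33 in subset 2, and its difference of 2.01 ± 0.58 did not pass (adjusted p = 0.12). Ccr2 read 4.92 and 4.84 in the low-detection arrays against 7.38 and 6.97 in the other arrays of subset 2. Without the low-detection arrays its difference was 0.86 (adjusted p = 0.0645). Cx3cr1 differed by −0.66 ± 0.57 (adjusted p = 0.469), a sign that also turned under median scaling.

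Among the 12 genes with the largest differences towards subset 1 were, beside Ly6c1 and Slfn4, genes of clotting, chemotaxis and the complement response. Chil3, which encodes the chitinase-like protein Ym1, was 9.91, 9.62, 9.96 and 9.89 in subset 1 and 6.62, 4.60, 4.85 and 4.57 in subset 2. It was higher in subset 1 by 4.68 ± 0.46 (adjusted p = 0.00189), and 1 array of subset 2, that of WT, was above background, so no exact fold is given here or for other genes read in only some arrays of the lower subset. F13a1, the A subunit of clotting factor XIII, was 8.91, 9.21, 9.0 and 9.46 in subset 1 and 6.36, 4.69, 4.82 and 4.76 in subset 2. Again the WT array was the 1 array of subset 2 above background, and the difference was 3.99 ± 0.41 (adjusted p = 0.00199). Thbd, the anticoagulant receptor thrombomodulin, was 8.15, 8.04, 8.86 and 8.97 in subset 1 and 6.08, 4.4, 4.99 and 4.46 in subset 2, where 1 array was above background (3.52 ± 0.43, adjusted p = 0.00431). Klra2, an inhibitory lectin-like receptor of the Ly49 family found on myeloid cells, was 9.82, 10.05, 10.97 and 10.51 in subset 1. Subset 2 read 8.0 in WT and 7.84 in Ccl2-/- but 4.56 and 4.84 in the 2 low-detection arrays, which were not above background. The difference of 4.02 ± 0.79 (adjusted p = 0.0401) was 2.41 without those arrays.

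Receptors for inflammatory peptides were among them. Fpr2, a formyl peptide receptor, was 8.09, 7.86, 9.30 and 9.04 in subset 1 and 4.52, 4.67, 4.68 and 4.65 in subset 2, where no array was above background. It was at least 6.72-fold higher in subset 1 (adjusted p = 0.00167), a bound for which every subset 2 array was raised to the faintest signal detected on it. C5ar1, the receptor for the complement peptide C5a, was 8.97, 8.18, 9.38 and 9.45 in subset 1 and 5.10, 4.60, 5.96 and 5.89 in subset 2. C5ar1 was higher in subset 1 by 3.61 ± 0.42 (adjusted p = 0.00342), with a single subset 2 array above background. C5ar2, the second C5a receptor, was 7.89, 7.73, 8.21 and 8.07 in subset 1, at least 4.45-fold higher than in subset 2 (adjusted p = 0.000969), where it was not detected. Fpr2 and C5ar2 entered the test through the subset 1 arrays alone.

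The 3 chemokines that attract CCR2+ monocytes were all called higher in subset 1. Ccl7 was 9.43, 9.64, 10.82 and 10.66 in subset 1 and 7.37, 5.57, 6.86 and 6.45 in subset 2, where 3 arrays were above background (3.58 ± 0.47, adjusted p = 0.00619). Ccl12 was 6.76, 7.46, 9.54 and 9.09 in subset 1 and was not detected in subset 2, at least 5.24-fold (adjusted p = 0.0257). Ccl12 entered the test through the subset 1 arrays alone. Ccl2 was 8.76, 8.71, 9.86 and 9.33 in subset 1 and 6.42, 5.14, 7.23 and 5.09 in subset 2, where 2 arrays were above background (3.19 ± 0.52, adjusted p = 0.0182). In all 3 genes the arrays labelled as lacking Ccl2 were the highest of subset 1, the Ccl2 probe included. Whether the Ccl2 probe lies in the deleted part of the gene is unknown here, so its level is no check of the strain. These neighbouring genes are alike enough for a probe to read more than 1 of them. A second probe of Ccl7 differed by 1.77 and did not pass (adjusted p = 0.197). Of 17 tested chemokine genes, Ccl17 was the other 1 called, in the opposite direction, and the counts of 3 and 1 were the same without the low-detection arrays.

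**Figure D2:**
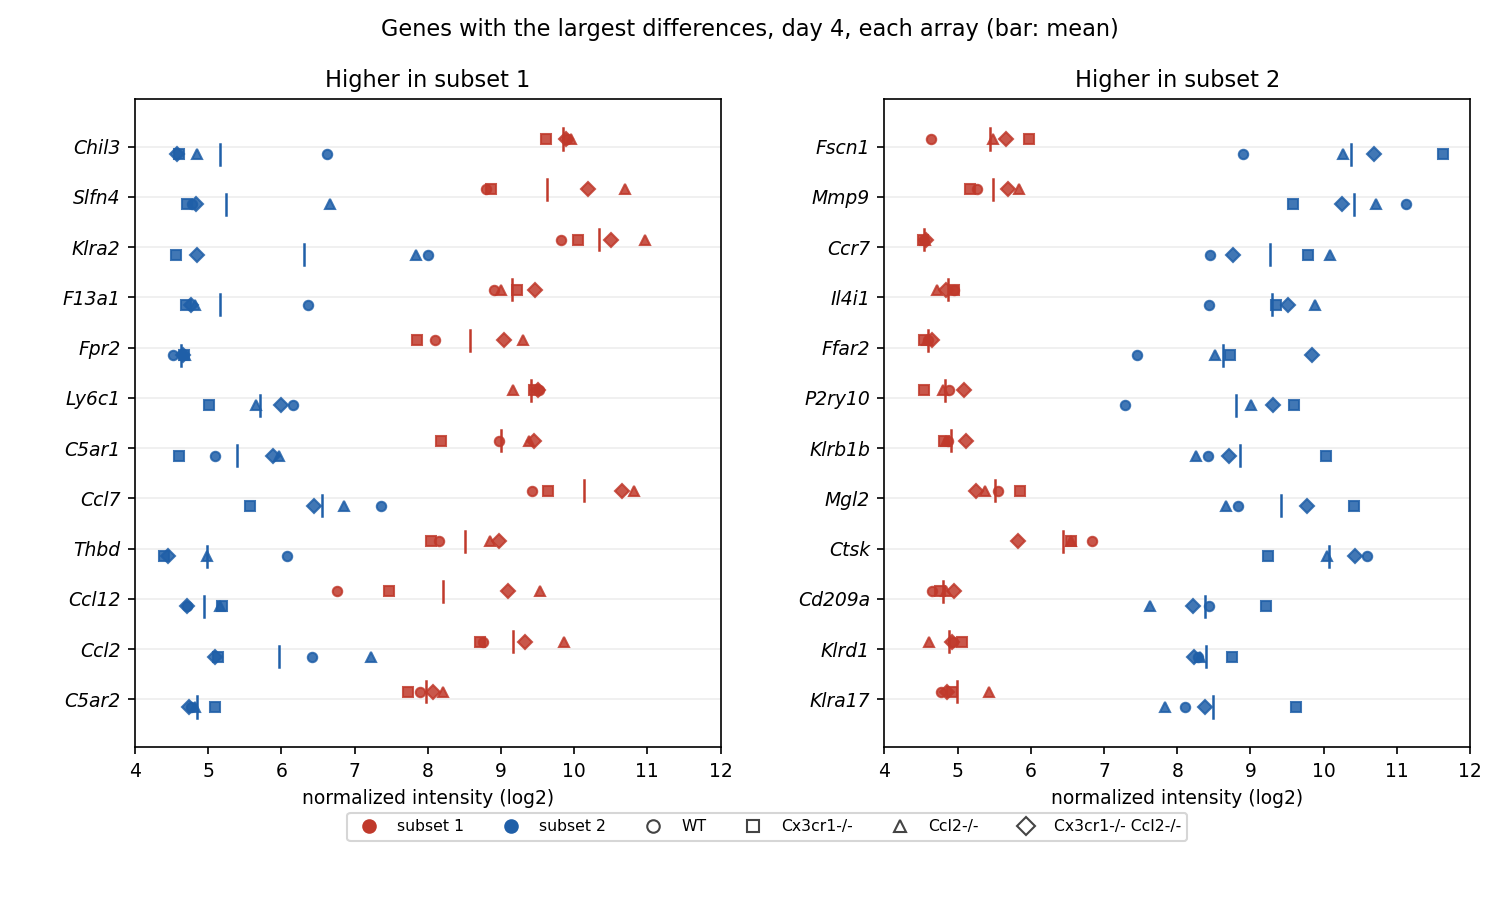
Normalized log2 intensity (x axis) of the 12 genes with the largest differences in each direction, red for subset 1 and blue for subset 2, with 1 symbol for each strain and a bar at the mean of 4 arrays. In every gene shown the red and blue symbols do not overlap, and in Klra2 the 2 low-detection arrays of subset 2 lie at 4.56 and 4.84 while the other 2 lie at 7.84 and 8.0.

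Monocyte and macrophage lists leaned the same way. Of 15 tested classical monocyte genes 5 were called higher in subset 1 and none in subset 2, the genes being Chil3, F13a1, Ly6c1, Thbs1 and Mgst1, and all 15 had a positive difference (median 2.01, against 0.27 for all tested genes). Among them Ly6c1 is a gene of the antigen that parted the subsets, so its call is no independent finding. The share called over all tested genes was 0.908% higher in subset 1 and 0.734% higher in subset 2. Thbs1, the matrix protein thrombospondin 1, differed by 2.96 ± 0.55 (adjusted p = 0.0329), and Mgst1, a microsomal glutathione transferase, by 1.70 ± 0.28 (adjusted p = 0.0193). Vcan and Clec4e, at 3.01 ± 0.78 and 2.64 ± 0.66, did not pass (adjusted p = 0.0913 and 0.0872). For Hp, haptoglobin, the probe used differed by 1.31 and did not pass, while a dimmer probe was called at 2.17 (adjusted p = 0.0059). Of 19 tested macrophage core genes 4 were called, all higher in subset 1, with a median difference of 1.52. They were C5ar1, Adgre1, Tlr7 and Fcgr1, the high-affinity receptor for IgG. Fcgr1 was 8.74, 8.62, 9.25 and 9.08 in subset 1 and 6.28, 6.59, 6.79 and 6.29 in subset 2, narrow in both groups (2.43 ± 0.29, adjusted p = 0.00371). Mertk and Maf, which mark mature macrophages, differed by 2.27 ± 0.58 and 2.47 ± 0.62 and did not pass (adjusted p = 0.0909 and 0.0886). Without the low-detection arrays 8 classical monocyte genes and 8 macrophage core genes were called, again none of them higher in subset 2.

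Among innate sensors, Tlr7, the receptor for single-stranded RNA, was 7.19, 6.87, 6.77 and 7.07 in subset 1 and 4.87, 4.66, 5.46 and 5.04 in subset 2. It differed by 1.96 ± 0.29 (adjusted p = 0.0126) and was the 1 of 13 tested Toll-like receptor genes called by its brightest probe. Tlr4, the endotoxin receptor, did not pass by its brightest probe (2.40 ± 0.66, adjusted p = 0.111), but 2 dimmer probes were called higher in subset 1 (adjusted p = 0.0476 and 0.0194). When the low-detection arrays were left out, 5 Toll-like receptor genes were called, all higher in subset 1, among them Tlr4, Tlr13 and Cd14. Nod1, an intracellular receptor for peptidoglycan, was 8.39, 8.08, 8.36 and 8.32 against 5.45, 4.59, 6.19 and 4.56 (3.09 ± 0.40, adjusted p = 0.00514), and it was picked here after its values were seen. Cd93, a receptor of the complement and uptake list, differed by 2.42 ± 0.37 (adjusted p = 0.0141) and was the only call of 21 tested members, a count that became 5 higher in subset 1 and 1, Mfge8, higher in subset 2 without the low-detection arrays. C1qa, C1qb and C1qc, the subunits of C1q, were higher in subset 1 by 2.12, 2.22 and 1.79 without passing (adjusted p = 0.17, 0.146 and 0.123). The lectin receptor Clec4d was called higher in subset 1 (2.49 ± 0.51, adjusted p = 0.0485).

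Of 18 tested inflammatory cytokine genes and targets 2 were called, both higher in subset 1 with and without the low-detection arrays. Il10, the anti-inflammatory cytokine, was 7.5, 8.3, 9.08 and 8.82 in subset 1 and 6.00, 4.56, 6.03 and 5.98 in subset 2 (2.79 ± 0.46, adjusted p = 0.0193). Osm, oncostatin M of the interleukin-6 family, was bright in both subsets, 11.53, 11.74, 11.57 and 11.59 in subset 1 and 10.32, 9.75, 10.59 and 9.96 in subset 2 (1.45 ± 0.29, adjusted p = 0.0443). Tnf, Il1b and Il6 did not pass, with differences of −1.11 ± 0.64, −0.60 ± 0.31 and 0.28 ± 0.66 (adjusted p = 0.301, 0.261 and 0.8). Vegfa, the endothelial growth factor, differed by 3.42 ± 0.84 and did not pass (adjusted p = 0.0826). Among 10 tested interleukin-1 family genes the call was Il1r2, the decoy receptor for interleukin-1, which was 6.66, 8.55, 7.73 and 7.46 in subset 1 and 9.15, 10.89, 10.28 and 10.32 in subset 2 (−2.56 ± 0.48, adjusted p = 0.0336). The array labelled Cx3cr1-/- was highest and that of WT lowest in each subset. Of that family 1 gene was called in each direction without the low-detection arrays.

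Transcription factors parted in both directions. Cebpb, a C/EBP factor of monocytes and macrophages, was 9.45, 9.93, 10.11 and 9.79 in subset 1 and 8.04, 7.58, 7.22 and 8.26 in subset 2 (2.04 ± 0.33, adjusted p = 0.017). Pparg, the lipid-sensing nuclear receptor, was called higher in subset 1 by 2.12 ± 0.44 (adjusted p = 0.0499), and its 2 low-detection arrays were lowest. Irf4 was 4.95, 5.17, 4.78 and 5.31 in subset 1, where a single array was above background, and 6.76, 8.04, 6.85 and 8.46 in subset 2 (−2.48 ± 0.42, adjusted p = 0.0219). Of 27 tested factors these were the 3 calls, and without the low-detection arrays 3 were called in each direction. Irf8, Spi1 and Klf4 differed by 0.24, 0.61 and 0.13 and did not pass (adjusted p = 0.743, 0.428 and 0.811).

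Several lists held few or no calls. None of 28 tested interferon-induced genes was called in either direction by limma, although 17 had an unadjusted p under 0.05 and 25 differences were positive (median 1.15, or 1.06 with genes undetected in 1 subset at their bounds). Over all tested probes, 3309 of 14956 had an unadjusted p under 0.05. A dimmer probe of Ifi204 was called higher in subset 1 (2.45, adjusted p = 0.0403), while its brightest was not (1.32, adjusted p = 0.135). Zbp1, Rsad2 and Irf7 differed by 2.04 ± 0.61, 1.67 ± 0.51 and 1.29 ± 0.37 (adjusted p = 0.127, 0.131 and 0.118). Without the low-detection arrays 2 interferon-induced genes were called. None of 23 tested hypoxia and glycolysis genes and none of 11 immediate early and heat shock genes was called by limma, with 6 and 2 at an unadjusted p under 0.05. Leaving out the low-detection arrays, 1 hypoxia gene was called and no immediate early gene. In the list on lipid handling 1 of 20 tested genes was called, Apoc1, an apolipoprotein that was 6.26, 7.20, 6.27 and 6.76 in subset 1 and not detected in subset 2 (at least 1.74-fold, adjusted p = 0.0182). Apoc1 entered the test through the subset 1 arrays alone. Apoe and Fabp5 differed by 2.29 ± 0.68 and 2.50 ± 0.52 and did not pass (adjusted p = 0.125 and 0.0513), and 2 genes of the list were called without the low-detection arrays. In the other lists, Fc and lectin receptors had 2 calls in each direction of 19 tested (4 and 3 without the low-detection arrays), and alternative activation 2 and 1 of 14 (3 and 2). Chemotactic receptors had 2 and 1 of 10 tested (3 and 1), the Schlafen family 1 and 0 of 5 (2 and 0), growth factors 2 and 0 of 12 (3 and 0), co-stimulation 0 and 1 of 11 (1 and 1), and integrins 0 and 1 of 16 (0 and 2). Of all tested genes, 0.908% were called higher in subset 1 and 0.734% higher in subset 2. The lists share genes, so these calls are not all separate findings. Mgl2 counts both among lectin receptors and under alternative activation, and the Schlafen call is Slfn4, described above. These counts use the brightest probe of a gene. Dimmer probes of Apoc2, Itgav and Stab1 were called higher in subset 1 (adjusted p = 0.037, 0.017 and 0.0428), while their brightest were not.

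**Figure D3:**
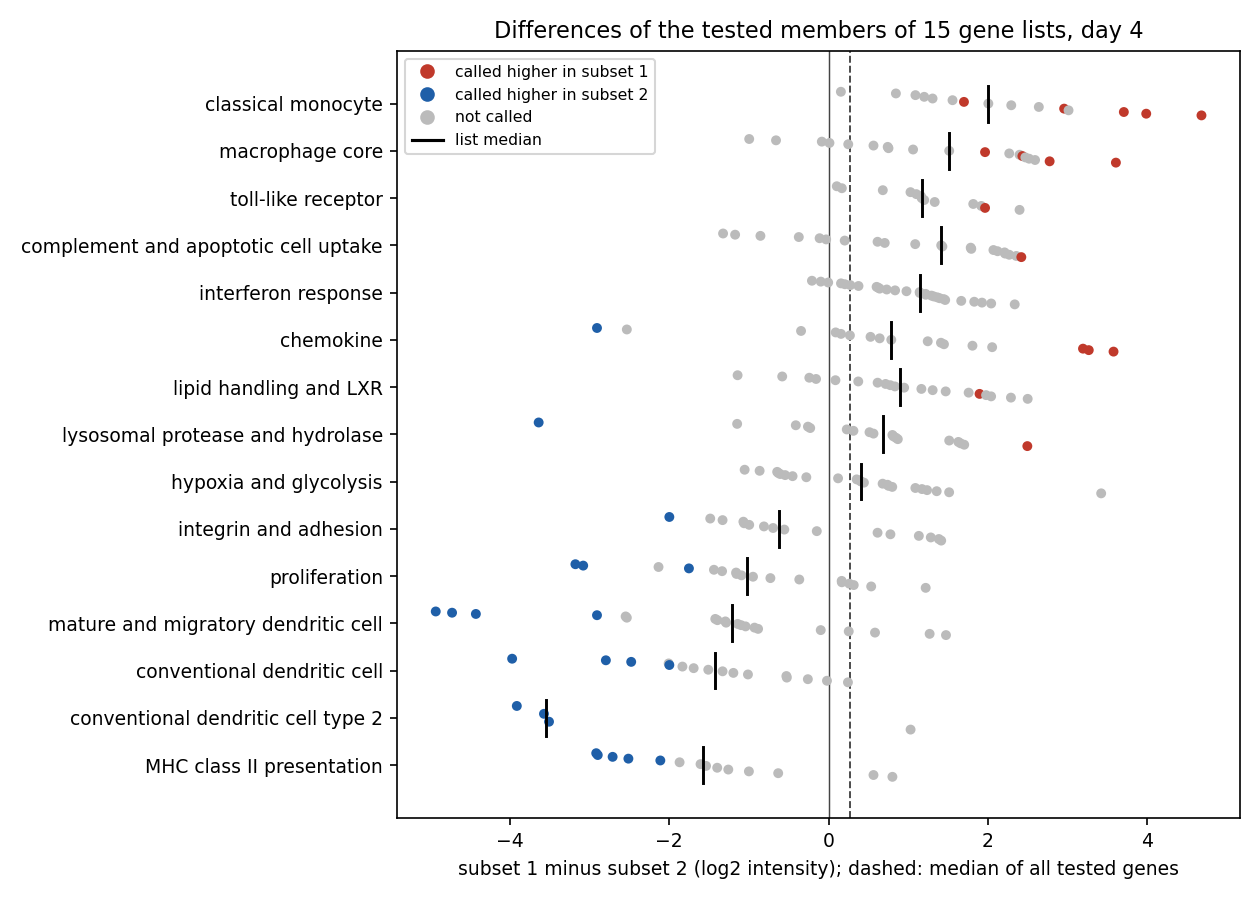
Log2 difference of subset 1 minus subset 2 (x axis) for the tested members of 15 gene lists, 1 point a gene, red or blue where called and grey where not, with a bar at each list's median and a dashed line at the median of all tested genes (0.27). The medians run from 2.01 for classical monocyte genes to −3.54 for type 2 dendritic cell genes, of which 4 of 11 with a probe were tested, and the 15 classical monocyte genes all lie above 0.

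The genes with the largest differences towards subset 2 were led by genes of mature dendritic cells. Beside Fscn1, Ccr7 was 4.55, 4.52, 4.55 and 4.57 in subset 1, not above background, and 8.45, 9.79, 10.08 and 8.76 in subset 2. Ccr7 was at least 16-fold higher in subset 2 (adjusted p = 0.000864). Il4i1, a secreted oxidase of amino acids made by mature dendritic cells, was 8.43, 9.35, 9.88 and 9.52 in subset 2 and not detected in subset 1, at least 16.3-fold (adjusted p = 0.000613). Ccl17, a chemokine for CCR4+ T cells, was 7.42, 8.38, 8.43 and 7.43 in subset 2 and not detected in subset 1, at least 6.26-fold (adjusted p = 0.00342). These 4 were the calls among 20 tested genes of mature and migratory dendritic cells, none of which was called higher in subset 1, and 7 of 27 with a probe were not tested. Without the low-detection arrays 5 were called, and 3 under median scaling. Ccr7, Il4i1 and Ccl17, with no subset 1 array above background, entered the test through the subset 2 arrays alone. The costimulatory genes Cd40, Cd80, Cd83 and Cd86 differed by 0.58, −0.10, −0.88 and 1.27 and did not pass (adjusted p = 0.603, 0.933, 0.162 and 0.176), and 4 probes of Cd40 disagreed in sign. Ccl22, another chemokine of mature dendritic cells, was not detected in any of the 8 arrays. Tnfsf9, the ligand of the T cell costimulator 4-1BB, was 5.33, 4.83, 5.48 and 5.45 in subset 1 and 7.79, 9.44, 6.91 and 9.06 in subset 2 (−3.03 ± 0.53, adjusted p = 0.0251).

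Some genes of conventional dendritic cells were also called higher in subset 2. Mgl2, a galactose-binding lectin, was 5.55, 5.85, 5.37 and 5.25 in subset 1 and 8.82, 10.41, 8.66 and 9.78 in subset 2, a 15.1-fold difference (adjusted p = 0.00237). Cd209a, a homologue of the lectin DC-SIGN, was 8.43, 9.22, 7.63 and 8.22 in subset 2 and not detected in subset 1 (at least 8.60-fold, adjusted p = 0.00189). Klrd1, the lectin-like receptor CD94, was 8.28, 8.75, 8.31 and 8.23 in subset 2 and not detected in subset 1 (at least 8.70-fold, adjusted p = 0.000613). These were 3 of the 4 tested genes of the type 2 list, with and without the low-detection arrays, and the fourth, Sirpa, differed by 1.03 and was not called. The list has 11 genes with a probe, Cd209a and Klrd1 entered the test through the subset 2 arrays alone, and the summed intensity of the 11 overlapped, at 2571 to 3673 in subset 1 and 3148 to 3469 in subset 2. P2ry10, a receptor for lysophospholipids, was 7.28, 9.59, 9.01 and 9.31 in subset 2 and not detected in subset 1 (at least 11.5-fold, adjusted p = 0.00409), and 2 further probes of it were called the same way. P2ry10 also entered the test through the subset 2 arrays alone. With Dpp4, Irf4 and the adhesion molecule Jaml (−2.00 ± 0.41, adjusted p = 0.0487) it made up the 4 calls among 16 tested conventional dendritic cell genes, of 20 with a probe, and 7 were called higher in subset 2 without the low-detection arrays but 2 under median scaling. Itgax, the gene of CD11c, and Zbtb46, a transcription factor of that lineage, differed by −1.33 ± 0.34 and −1.01 ± 0.49 without passing (adjusted p = 0.0895 and 0.244). Among 5 tested genes of type 1 dendritic cells, Rab7b was called and was higher in subset 1 (1.53 ± 0.28, adjusted p = 0.0297), and 1 gene was called in each direction without the low-detection arrays. Xcr1 and Tlr3 were not detected in any array and Clec9a in 1. Of 5 tested plasmacytoid dendritic cell genes none was called by limma with or without the low-detection arrays, and 2 had an unadjusted p under 0.05.

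**Figure D4:**
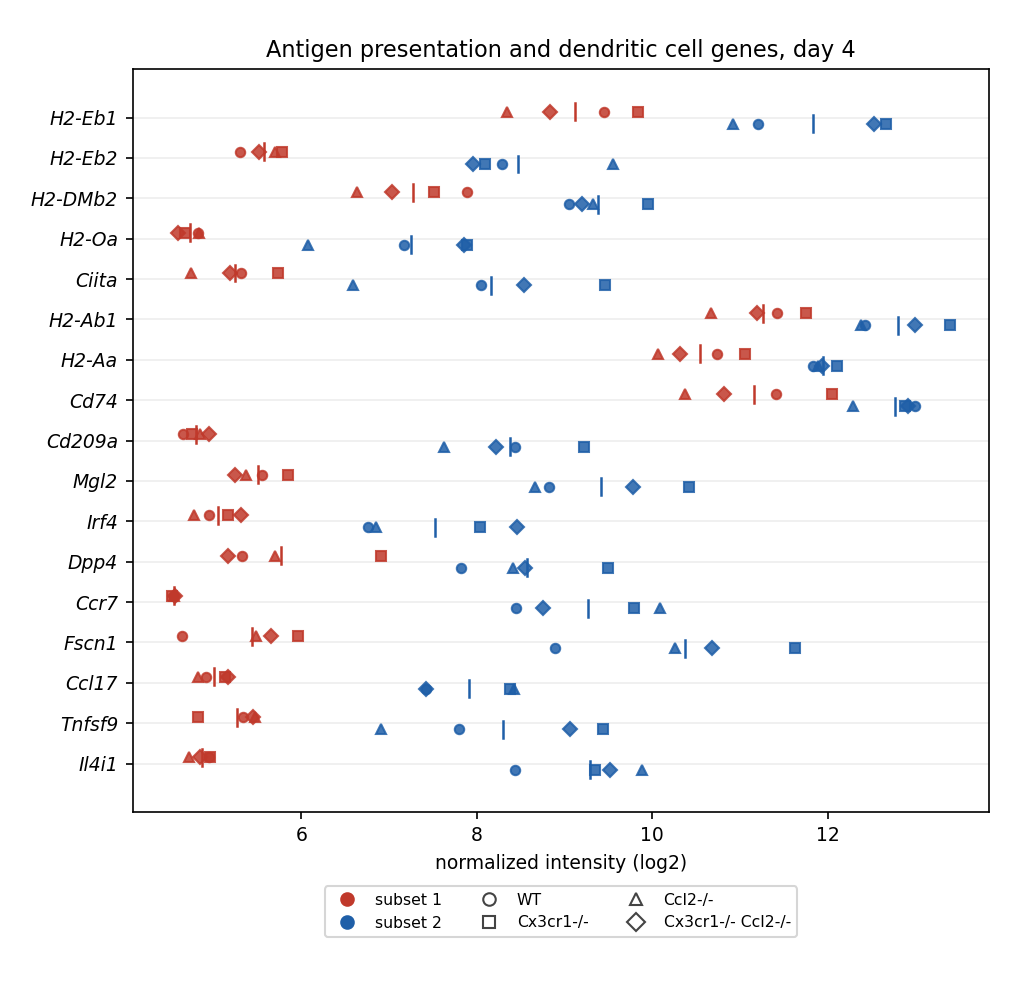
Normalized log2 intensity (x axis) of genes of antigen presentation and of dendritic cells, red for subset 1 and blue for subset 2, with 1 symbol for each strain and a bar at the mean of 4 arrays. H2-Ab1, H2-Aa and Cd74 are bright in both subsets and closer together than H2-Eb2, H2-Oa or Ciita, and Ccr7 and Il4i1 lie near background in subset 1.

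MHC class II genes were also called higher in subset 2. Of 14 tested genes of the presentation list 5 were called, all higher in subset 2, and 12 differences were negative (median −1.57). H2-Eb1, a class II beta chain, was 9.45, 9.84, 8.35 and 8.84 in subset 1 and 11.21, 12.66, 10.92 and 12.53 in subset 2, a 6.55-fold difference (adjusted p = 0.0302). H2-Eb2, its close relative, was 5.30, 5.78, 5.70 and 5.52 in subset 1 and 8.29, 8.09, 9.55 and 7.96 in subset 2, a 7.45-fold difference (adjusted p = 0.0064), while another probe of H2-Eb2 differed by −1.86 ± 0.78 and did not pass (adjusted p = 0.21). Ciita, the coactivator that switches class II genes on, was 5.32, 5.74, 4.74 and 5.19 in subset 1 and 8.05, 9.47, 6.59 and 8.54 in subset 2 (−2.92 ± 0.55, adjusted p = 0.0337), with 2 arrays of subset 1 above background. For Ciita and H2-Eb1 the array labelled Cx3cr1-/- was the highest and the Ccl2-/- array the lowest in each subset. H2-Oa, a chain of the H2-O molecule that restrains peptide loading, was 7.17, 7.89, 6.07 and 7.86 in subset 2 and not detected in subset 1 (at least 3.94-fold, adjusted p = 0.0193). It entered the test through the subset 2 arrays alone. H2-DMb2, a chain of the molecule that loads peptides, differed by −2.11 ± 0.36 (adjusted p = 0.0219), and another probe of it by −3.81 ± 0.38 (adjusted p = 0.00189). The classical chains H2-Aa and H2-Ab1 and the invariant chain gene Cd74 differed by −1.40 ± 0.31, −1.54 ± 0.36 and −1.61 ± 0.40, and did not pass (adjusted p = 0.0591, 0.0718 and 0.0826). Without the low-detection arrays 7 members were called higher in subset 2 and 1, Lgmn, higher in subset 1, and under median scaling 2 were called.

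Promoters are shown for 4 of the 5 called genes of the class II list, since class II promoters are known to share 2 short elements, the X box and the Y box. Ciita is named only. Of the 15 genes of the list 12 matched RefSeq promoter sequences (GRCm38.p6, 250 bases before to 50 after the start site). The core of the Y box, CCAAT, was searched on both strands and lay in 10 of these 12 and in 37.4% of all 32851 promoters. A stretch of the X box, AACNGATG, was searched likewise and lay in 5 of the 12 and in 2.32% of all promoters. Both lay in 4 of the 12 and in 0.88% of all. A gene of the list counted if any promoter sequence under its symbol matched, while the percentages are of single promoters, so the 2 measures are not alike. In the following sequences, written 5′ to 3′, capitals mark matches to either motif on either strand.
H2-Eb1 (GRCm38.p6, chr17:34305617-34305916, plus strand): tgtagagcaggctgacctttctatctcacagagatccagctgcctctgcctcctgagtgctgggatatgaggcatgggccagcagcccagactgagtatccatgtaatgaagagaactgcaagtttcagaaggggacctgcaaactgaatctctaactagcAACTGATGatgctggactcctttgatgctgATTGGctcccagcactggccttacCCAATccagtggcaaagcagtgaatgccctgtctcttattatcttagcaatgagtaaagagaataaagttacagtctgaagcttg
H2-Eb2 (GRCm38.p6, chr17:34325425-34325724, plus strand): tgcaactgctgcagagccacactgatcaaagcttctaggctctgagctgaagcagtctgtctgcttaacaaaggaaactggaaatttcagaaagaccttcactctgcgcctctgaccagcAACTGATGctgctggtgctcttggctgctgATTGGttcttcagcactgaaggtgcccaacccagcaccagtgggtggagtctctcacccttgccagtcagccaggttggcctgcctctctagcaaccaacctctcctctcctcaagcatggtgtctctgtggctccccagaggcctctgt
H2-DMb2 (GRCm38.p6, chr17:34144999-34145298, plus strand): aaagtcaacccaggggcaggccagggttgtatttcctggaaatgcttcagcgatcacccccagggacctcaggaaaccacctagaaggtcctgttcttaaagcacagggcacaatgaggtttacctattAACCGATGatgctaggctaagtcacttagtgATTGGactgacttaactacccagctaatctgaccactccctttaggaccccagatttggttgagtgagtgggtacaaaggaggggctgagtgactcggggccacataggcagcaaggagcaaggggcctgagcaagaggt
H2-Oa (GRCm38.p6, chr17:34092129-34092428, plus strand): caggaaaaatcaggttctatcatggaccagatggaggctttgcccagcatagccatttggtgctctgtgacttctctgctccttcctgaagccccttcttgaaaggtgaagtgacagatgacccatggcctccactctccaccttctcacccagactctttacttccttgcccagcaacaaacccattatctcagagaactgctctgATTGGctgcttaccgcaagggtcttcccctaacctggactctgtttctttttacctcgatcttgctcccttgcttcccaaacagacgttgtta
In H2-Eb1 and H2-Eb2 22 bases lay between the X box match and the next Y box match, and in H2-DMb2 23 bases. H2-Oa held the CCAAT match alone in this window.

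Of 18 tested proliferation genes 3 were called, all higher in subset 2, and 8 of 26 with a probe were not tested. Birc5, the mitotic protein survivin, was 4.99, 4.99, 4.98 and 5.21 in subset 1, where 1 array was above background, and 6.57, 9.69, 7.52 and 9.10 in subset 2 (−3.18 ± 0.61, adjusted p = 0.036). The 2 low-detection arrays were the highest, and without them the difference was −2.00. All 3 probes of Birc5 were called. Stmn1, which destabilises microtubules, differed by −3.08 ± 0.44 (adjusted p = 0.0104) and Mcm7, a subunit of the replicative helicase, by −1.75 ± 0.34 (adjusted p = 0.0365). Cdk1 and Pcna differed by 0.16 and 0.54 and did not pass (adjusted p = 0.825 and 0.452), and Top2a was detected in 3 arrays of subset 2 and none of subset 1. Without the low-detection arrays 9 members were called, all higher in subset 2, and under median scaling 2.

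Replication-dependent histone genes formed a further group, picked here after the values were seen and therefore not tested as a list. Of 41 such genes tested 13 were called, all higher in subset 2, against 0.734% of all genes, and 37 differences were negative (median −1.16). H4c1 was 8.43, 8.04, 7.79 and 8.28 in subset 1 and 9.89, 9.47, 9.97 and 10.24 in subset 2 (−1.76 ± 0.30, adjusted p = 0.0214). H3c7 was 5.80, 5.73, 5.08 and 5.28 in subset 1 and 7.66, 8.30, 8.15 and 8.79 in subset 2 (−2.75 ± 0.34, adjusted p = 0.0043). In neither gene did the low-detection arrays stand apart, and without the low-detection arrays 28 of the 41 were called. Under median scaling none of the 41 was called by limma, and the median was −0.65. With the pool as a block 1 of the 13 remained called. These genes are near-identical copies that 1 probe can read together, so the 13 calls are not separate measurements.

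Among proteases and their inhibitors calls fell in both directions. Mmp9, a gelatinase that cuts basement membranes, was 5.26, 5.17, 5.83 and 5.69 in subset 1 and 11.12, 9.58, 10.71 and 10.25 in subset 2. It was higher in subset 2 (log2 difference −4.93 ± 0.38, adjusted p = 0.000613), with 2 arrays of subset 1 above background. Ctsk, the collagen-cutting cathepsin K, was 6.83, 6.55, 6.55 and 5.83 in subset 1 and 10.60, 9.24, 10.04 and 10.44 in subset 2, a 12.5-fold difference (adjusted p = 0.00206). In both genes the lowest array of subset 2 was the one labelled Cx3cr1-/-, which still lay above all arrays of subset 1. Ctsl, cathepsin L, was higher in subset 1 by 2.50 ± 0.34 (adjusted p = 0.00772), and Slpi, an inhibitor of neutrophil serine proteases, by 3.05 ± 0.49 (adjusted p = 0.017). Lysosomal genes had 1 call in each direction of 18 tested, and 2 and 1 without the low-detection arrays. Matrix proteases and inhibitors had 1 in each direction of 13 tested, and 1 and 2 without those arrays.

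The remaining genes of the 12 highest in subset 2 encode receptors. Ffar2, which senses short-chain fatty acids, was 7.46, 8.72, 8.51 and 9.84 in subset 2 and not detected in subset 1 (at least 10.3-fold, adjusted p = 0.00316). Ffar2 entered the test through the subset 2 arrays alone. Klrb1b, a lectin-like receptor of the family of NK1.1, was 8.43, 10.03, 8.26 and 8.70 in subset 2 and not detected in subset 1 (at least 12-fold, adjusted p = 0.00198). Klra17, known as Ly49Q, was 4.77, 4.92, 5.43 and 4.86 in subset 1 and 8.11, 9.62, 7.84 and 8.38 in subset 2 (−3.49 ± 0.41, adjusted p = 0.00342), with 1 array of subset 1 above background. With Klrd1 and Klri1 these made 4 lectin-like receptors of this kind higher in subset 2, while Klra2 was higher in subset 1, of 7 tested. Over all tested genes 0.734% were called higher in subset 2 and 0.908% higher in subset 1. The family was picked here after its values were seen, and Klrb1b and Klrd1 entered the test through the subset 2 arrays alone. In Klrb1b, Klrd1 and Klra17 the array labelled Cx3cr1-/- was the highest of subset 2. Klrb1c, the gene of NK1.1 itself, differed by 0.17 ± 0.40 (adjusted p = 0.792). Ncr1, Nkg7 and Gzmb, which are expressed in natural killer cells, and Cd3e and Cd3g, which are expressed in T cells, were not above background in any of the 8 arrays. The summed linear intensity of 13 T and natural killer cell genes was 1107 to 1399 in subset 1 and 895 to 1435 in subset 2.

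Markers of other cells that the gate could hold were also read. Of 11 neutrophil genes with a probe 1 was tested, Csf3r, the receptor for G-CSF, which monocytes also carry. Csf3r was 8.06, 8.23, 6.97 and 6.87 in subset 1 and 4.96, 4.61, 5.39 and 4.46 in subset 2 (2.68 ± 0.41, adjusted p = 0.0138), but 3 other probes of it differed by 0.63, 0.87 and 1.19 and did not pass (adjusted p = 0.376, 0.212 and 0.103). S100a8, Ltf, Camp, Ngp, Mpo and Mmp8 were not above background in any array, and the summed intensity of the 11 genes was at most 568 in subset 1 and ran from 296 to 1472 in subset 2, the highest in the array labelled Cx3cr1-/- Ccl2-/-. Of 10 fibroblast genes 7 were tested and none called by limma, 1 having an unadjusted p under 0.05, with sums of 720 to 2222 in subset 1 and 1496 to 4511 in subset 2, the highest in WT. Of 7 muscle progenitor genes 1 was tested, Des, the muscle filament gene desmin, which differed by −0.63 (adjusted p = 0.667) but was called higher in subset 2 without the low-detection arrays (−2.58, adjusted p = 0.00154). The summed progenitor intensity was 538 in WT and 585 in Ccl2-/- of subset 2, against 202 to 248 in subset 1, while Pax7 and Myod1 were not above background in any array. The mast cell and basophil sum was 818 to 3175 in subset 1 and 657 to 1183 in subset 2, and the 1 gene tested, Hdc, did not pass (2.20, adjusted p = 0.213). Of endothelial, erythroid and muscle fibre genes 1, 1 and 2 were tested and none called by limma, none having an unadjusted p under 0.05. No B cell or eosinophil gene was detected in enough arrays to be tested. The part of these cells in the differences above was not tested.

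Subsets 3 and 4, the F4/80 high cells of the same pools, set these levels in context. All 73 genes called higher in subset 1 had a higher mean in subset 3 than in subset 2, and 48 had a lower mean in subset 3 than in subset 1. All 59 genes called higher in subset 2 had a lower mean in subset 3 than in subset 2, and 58 a lower mean in subset 4. These counts share the subset 2 arrays with the calls and are a description. The same counts over all tested genes were not made. Ccr7 had a mean of 4.55 in subset 3 and 4.82 in subset 4, and Fscn1 of 5.56 and 5.61, close to their level in subset 1. Mgl2 was the exception, at 10.06 in subset 4 and 6.32 in subset 3. Slfn4 had a mean of 9.63 in subset 1, 6.93 in subset 3 and 5.59 in subset 4, and Chil3 of 9.84, 9.18 and 6.82. F13a1 and Ccl7 were instead highest in subset 4, with means of 9.14, 8.50 and 10.77 and of 10.14, 9.55 and 10.85. How many of the 73 genes had a higher mean in subset 4 than in subset 1 was not counted.

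**Figure D5:**
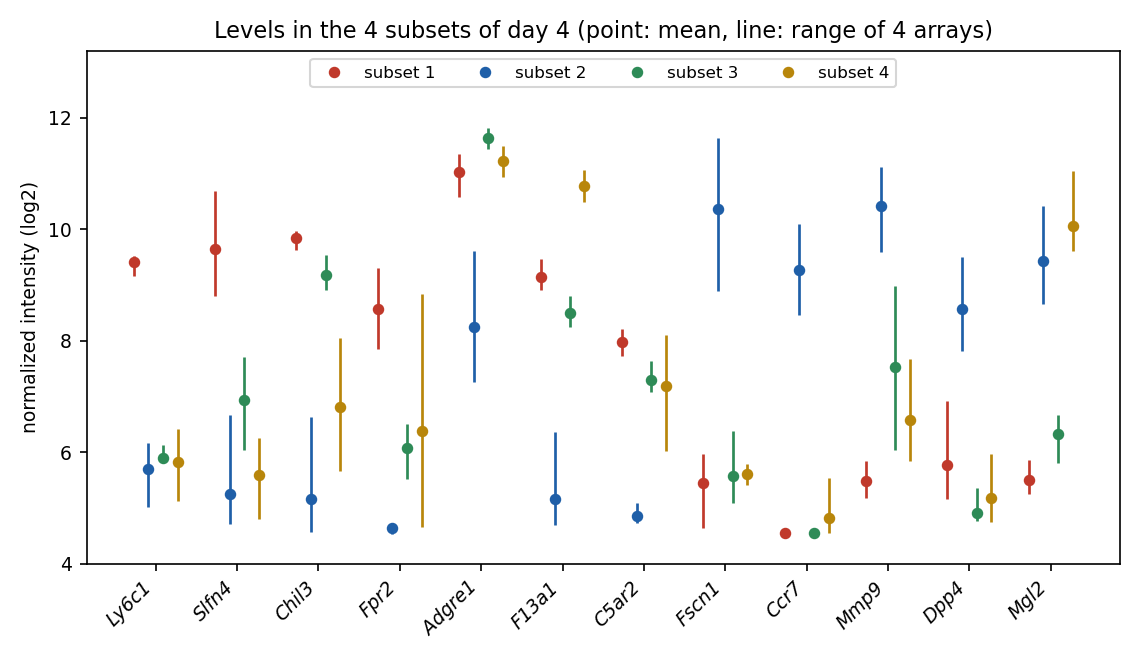
Normalized log2 intensity (y axis) of 12 genes in the 4 subsets of day 4, with a point at the mean and a line over the range of the 4 strains. Ly6c1 is high in subset 1 alone, Fscn1, Ccr7 and Dpp4 in subset 2 alone, and Mgl2 in subsets 2 and 4.

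Of the 24 genes with the largest differences, 21 stayed under the threshold whichever of the 8 arrays was left out. Klra2, Ccl12 and Ccl2 did not, with adjusted p-values of up to 0.149, 0.112 and 0.0962. Dpp4, Adgre1, Ciita, H2-Eb1, Irf4 and Birc5 were likewise lost without some subset 1 arrays or without the subset 2 array labelled Cx3cr1-/- Ccl2-/-, at up to 0.108, 0.126, 0.134, 0.131, 0.1 and 0.128. With the pool as a block 25 of the 73 genes higher in subset 1 and 30 of the 59 higher in subset 2 kept their call. Among the genes described, the block took Klra2, Clec4d, Birc5 and Klri1 to adjusted p-values of 0.058, 0.0517, 0.0629 and 0.0625. It took H2-Oa, H2-DMb2, Tnfsf9, Jaml and Rab7b to 0.0678, 0.0728, 0.0712, 0.104 and 0.101, and Mcm7 and H4c1 to 0.112 and 0.0869. Cebpb, Pparg, Tlr7, Osm, Mgst1 and Apoc1 went to 0.0826, 0.114, 0.0712, 0.128, 0.088 and 0.0826. Further probes of Chil3, Klra2, Cd93, Pparg and Rab7b had the same sign but did not pass (adjusted p = 0.152, 0.0755, 0.0713, 0.126 and 0.219).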

How the data were processed

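RNA of the sorted cells was extracted with an RNeasy kit, amplified with the Ovation Pico WTA system and hybridised to Illumina whole mouse genome arrays. The authors deposited signal intensities without normalization, with a detection p-value for each, and a matrix of processed intensities, used here as an alternative. GenomeStudio is named in the submitters' processing notes (version not given in the sources used here). Background correction, the quantile step over 24 arrays and log2 with an offset of 16 were done with neqc (limma 3.58.1, R 4.3.3). Probes with a detection p under 0.05 in at least 4 of the 8 arrays were fitted on these 8 (lmFit, eBayes), with Benjamini-Hochberg adjustment over 14956 probes. A gene stands for its tested probe of highest mean. In the platform annotation 34885 probes have 1 symbol, 18 have several and 10378 have no symbol. Named genes were the 12 with the largest called difference in each direction, genes of the gates and labels, and members of 38 lists. Members and lists were chosen with earlier results of these data known. Subsets 1 and 2 of a strain came from 1 pool, and deviations of the 2 arrays of a pool from their subset means correlated at 0.03 to 0.16, against −0.14 to 0.14 between pools. No 2 arrays were identical. The fit was also run on simulated arrays drawn with the spread of the subset 1 arrays. That run leaves out the wider spread of subset 2 and cannot speak for it. Alternatives changed the normalization, filter, model, pairing and arrays.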

Additional observations from a re-analysis of the deposited data

Results flagged for a closer look

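In 17 of 272 groups of 4 arrays examined (136 genes in 2 subsets, 6.2%) 1 array lay far from the other 3 by Dixon's criterion, which chance does in about 1 of 20 groups. All values are log2 intensities. In subset 2 the WT array was the distant one for Chil3 (6.62, others 4.57 to 4.85), F13a1 (6.36, others 4.69 to 4.82), Slc28a2b (5.39, others 4.67 to 4.77), Ap1s3 (7.02, others 7.38 to 7.41), H2ac7 (9.21, others 9.65 to 9.73) and Fpr2 (4.52, others 4.65 to 4.68, none above background). The subset 2 array labelled Cx3cr1-/-, of low detection, was distant for Adap2 (4.87, others 6.93 to 7.18), Ms4a7 (5.65, others 7.30 to 7.43), Il10 (4.56, others 5.98 to 6.03) and Klrd1 (8.75, others 8.23 to 8.31). The Ccl2-/- array of subset 2 was distant for Slfn4 (6.66, others 4.71 to 4.83) and Cd200 (8.98, others 8.46 to 8.51).

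In subset 1 the Ccl2-/- array was distant for Fam102a (6.94, others 5.96 to 6.05) and P2ry12 (6.62, others 7.53 to 7.61), the Cx3cr1-/- array for Kctd6 (6.89, others 7.36 to 7.40), and the Cx3cr1-/- Ccl2-/- array for Birc5 (5.21, others 4.98 to 4.99) and Klrb1b (5.11, others 4.82 to 4.86).

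Clec10a differed in sign between strains. Subset 1 minus subset 2 was −1.03 in WT and −1.52 in Ccl2-/-, but 1.34 and 0.61 in the pairs labelled Cx3cr1-/- and Cx3cr1-/- Ccl2-/-. This difference between strains was not tested, and the 2 pairs with the positive sign are those of the low-detection subset 2 arrays.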

How the results depend on the processing

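No called probe changed sign under any alternative run, but the number of calls (129 higher in subset 1, 81 higher in subset 2) moved widely. The replicate block by pool gave 33 and 39, all among the 210. Fitting all 16 arrays of day 4 gave 719 and 265, and 1575 and 589 with the replicate block. Array weights gave 657 and 406, a trend in the prior variance 230 and 92, median scaling 104 and 29, and detection in all 8 arrays 20 and 75 of 4348 probes. Dropping the 2 low-detection arrays gave 373 and 307, and dropping their 2 strains 20 and 34. Without 1 array at a time the counts ran from 25 to 263 and from 28 to 134, lowest without the subset 1 array of Cx3cr1-/- Ccl2-/-, and without the subset 2 array labelled so they were 41 and 39. An adjusted p under 0.01 left 26 and 28. The methods' one-way test gave 665 and 279 at an unadjusted p under 0.01, and 125 and 57 after adjustment. The other settings stayed within 1.5 times. Of the 132 called genes 35 were called whichever array was left out. The probe-by-probe comparison was chosen after seeing the data: of 51 further tested probes of 40 called genes 50 had the same sign and 17 were called.

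Directions turned for 3 genes not called in all 8 arrays. Clec10a was called higher in subset 2 without the 2 low-detection arrays (−1.24, adjusted p = 0.0145). It went from −0.15 to 0.63 under median scaling, and ran from −0.64 to 0.25 without 1 array, with 0.17 without the WT and 0.25 without the Ccl2-/- array of subset 2. Cx3cr1 went from −0.66 to 0.016 under median scaling and 0.56 without the 2 strains. Itgam went from −1.0 to 0.15 with array weights, 0.24 without the low-detection arrays and 0.019 without their strains. The cause was not tested. Arrays were 4 a subset, 1 a strain, and their number limits the precision.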
